A study of Mus musculus with 2 samples.

Results

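The cells described here are Wfdc18-rich epithelial cells of the adult mouse submandibular gland, in 1 library from a p63 knockout (KO) mouse and 1 library from a p63 wild-type (WT) mouse, both 12 weeks old. A cell was a member when it held at least 3 UMIs (unique transcript tags) of Wfdc18 and a UMI of at least 2 of the 5 genes Barx2, Foxc1, Elf5, Tmem176a and Tmem176b. Members also had no UMI of Ptprc, fewer than 3 of Krt14 and Krt17 together, under 2% of UMIs from Smgc and under 8% from the 14 Klk1 and Klk1b kallikrein genes. Of 4086 kept cells (at least 200 genes, under 20% mitochondrial UMIs), 677 were members, 373 of 2423 in the KO library and 304 of 1663 in the WT library. Whole glands were dissociated and run on the 10x Genomics droplet platform, where reads come from transcript 3' ends. The submitters also call the source primary epithelial progenitor cells. The sources used here do not state how, when and in which cells p63 was removed, or whether glands were pooled. The study's title names follistatin (Fst) and TGF-beta/activin signalling as its subject.

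In the rodent submandibular gland, intercalated ducts are the narrow first ducts that carry saliva away from the acini. They lie between the acinar cells, which secrete the bulk of the saliva, and the granular convoluted tubules, whose cells store kallikreins and growth factors. Their cells are small and cuboidal, and Kit and Sox9 are among the genes used to mark them. Wfdc18 encodes a small secreted protein of the whey acidic protein family. Barx2, Foxc1 and Elf5 are transcription factors of epithelia, and Car2 is a cytosolic carbonic anhydrase. The Trp63 gene encodes p63, a transcription factor that basal cells of stratified and glandular epithelia depend on.

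Wfdc18 lies at chr11:83709015-83711348 on the plus strand (mm10). The 250 bases before the RefSeq start of Wfdc18 are shown beside those of Mucl2, Pip and Prol1 (RefSeq, GRCm38.p6), the secretory genes that divided the members or stood apart between the libraries. Mucl2 is a mucin-like secretory gene, Pip encodes prolactin-induced protein and Prol1 a proline-rich secreted protein. Capitals mark TATAAA and TGTTTAC on either strand, searched together with GGAA.
Wfdc18 (chr11:83708754-83709003, plus strand): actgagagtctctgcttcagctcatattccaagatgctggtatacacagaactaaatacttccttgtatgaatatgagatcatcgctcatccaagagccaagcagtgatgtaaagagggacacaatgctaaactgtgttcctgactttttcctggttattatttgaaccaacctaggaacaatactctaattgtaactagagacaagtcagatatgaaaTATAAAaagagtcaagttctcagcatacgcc
Mucl2 (chr15:103899313-103899562, minus strand): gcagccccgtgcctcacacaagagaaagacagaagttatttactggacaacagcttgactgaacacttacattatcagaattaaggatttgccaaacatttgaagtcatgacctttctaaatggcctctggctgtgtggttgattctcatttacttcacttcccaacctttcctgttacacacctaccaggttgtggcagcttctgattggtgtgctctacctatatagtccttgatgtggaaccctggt
Pip (chr6:41847299-41847548, plus strand): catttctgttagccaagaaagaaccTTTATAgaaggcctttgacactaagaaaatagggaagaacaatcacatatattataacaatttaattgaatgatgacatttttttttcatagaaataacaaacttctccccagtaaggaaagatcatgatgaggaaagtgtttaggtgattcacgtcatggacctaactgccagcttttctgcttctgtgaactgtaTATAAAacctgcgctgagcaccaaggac
Prol1 (chr5:88317062-88317311, plus strand): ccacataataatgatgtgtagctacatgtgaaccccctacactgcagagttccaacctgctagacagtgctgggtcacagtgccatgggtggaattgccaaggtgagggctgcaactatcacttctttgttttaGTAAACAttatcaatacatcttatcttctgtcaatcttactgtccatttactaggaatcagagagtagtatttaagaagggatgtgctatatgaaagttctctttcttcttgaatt
TATAAA began 31 bases before the start of Wfdc18 and 28 bases before that of Pip on the gene's strand, with a second copy in Pip on the opposite strand at 225 bases. It occurred in 13% of 27025 promoters of that length. TGTTTAC occurred in Prol1, on the opposite strand 116 bases before the start, and in 3.09% of promoters. GGAA occurred 5 times in Wfdc18 and 3 times in each of the other promoters, and 93.4% of promoters held it. These matches describe letters in the windows and were not tied to binding.

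The 2 libraries differed in depth, and no genotype had a second library. There is therefore no test between genotypes here. Folds compare CPM values, which are the UMIs of a gene summed over a set and scaled to a set total of 1000000, and their 95% exact Poisson intervals cover counting error only, as do the exact binomial intervals of shares. A gene with 50 or more UMIs over the 2 sets was called higher or lower where its whole interval lay beyond 2-fold. Log2 ratios have 10 CPM added to both sides. Kept cells of the KO library went down to fewer UMIs than those of the WT library. Median UMIs per member were 3442 (range 1081 to 68173) in the KO library and 4208 (range 2200 to 46594) in the WT library. Of the deposited barcode sequences, 11 occurred in both libraries, among them those of 2 KO members and 3 WT members.

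In the cells outside the members, Trp63 had 15 UMIs (3 CPM) in the KO library and 137 UMIs (23.7 CPM) in the WT library, and the basal keratin Krt5 had 7 UMIs in the KO library and 643 in the WT library. Trp63 was rare in members of both genotypes. Among members low in Mucl2, defined below, it had 5 UMIs in KO members and 10 in WT members, a fold of 0.382 (0.102 to 1.23). Fst, the follistatin gene, had 4 UMIs in these KO members and 17 in WT members, a fold of 0.18 (0.044 to 0.551) on too few UMIs to enter the comparison.

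The rule did not give a uniform set of cells. A part of the members carried far more transcripts of Mucl2 and the secretoglobins Scgb1b27, Scgb2b26 and Scgb2b27 than of Wfdc18. With a limit of 5% of UMIs from these 4 genes, chosen after their values were seen, 353 KO and 249 WT members lay below it and are called low-secretory members. The other 20 KO and 55 WT members are called Mucl2-rich members. No WT member and 7 KO members lay between 5% and 20%. The 4 genes made up a median 46.6% of UMIs in Mucl2-rich KO members and 65.6% in Mucl2-rich WT members. These cells were also deep, with medians of 19226 UMIs in the KO library and 20556 in the WT library.

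**Figure D1:**
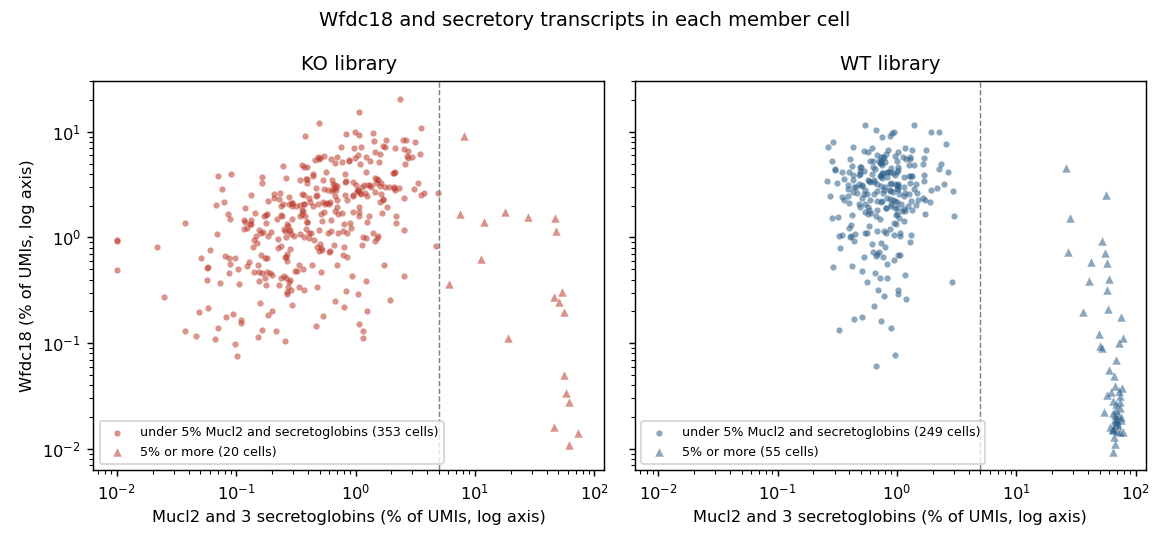
Each point is 1 member, with the share of its UMIs from Mucl2 and 3 secretoglobins (horizontal, log axis, values under 0.01% drawn at 0.01) and from Wfdc18 (vertical, log axis). The left panel is the KO library and the right panel the WT library, the dashed line marks 5%, and triangles are the 20 KO and 55 WT Mucl2-rich members. In the WT library the 2 kinds of member are separated by an empty range, while 7 KO members lie between 5% and 20%.

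Car2 and Kit, which the rule did not use, had a UMI in fewer of the Mucl2-rich than of the low-secretory members, although the Mucl2-rich cells were deeper. In the KO library Car2 was found in 30% of Mucl2-rich and 67.4% of low-secretory members, and Kit in 5% of Mucl2-rich and 28.9% of low-secretory members. In the WT library Car2 was found in 25.5% of Mucl2-rich and 85.1% of low-secretory members, and Kit in 7.27% of Mucl2-rich and 51.4% of low-secretory members. Sox9 differed less by share of cells, at 75% of Mucl2-rich and 83% of low-secretory members in the KO library, and 60% of Mucl2-rich and 91.6% of low-secretory members in the WT library. The genes of the rule were present in both kinds of member by construction, and their levels are a description, since Mucl2 and the secretoglobins enter every CPM. Wfdc18 stood at 20492 CPM in low-secretory KO members and 31092 CPM in low-secretory WT members. In Mucl2-rich members it was at 3291 CPM in the KO library and 1395 CPM in the WT library. Aqp5, the water channel of acinar cells, had a UMI in 92.7% of Mucl2-rich WT members with more than 20% from these 4 genes and in 92.3% of such KO members. Among low-secretory members with under 1% from them, Aqp5 was found in 4.65% of KO cells and 4.02% of WT cells. Mucl2-rich WT members were also set against the 108 Mucl2-rich WT cells outside the rule. Of 1173 genes, 0 were called higher (0%) and 3 lower (0.256%). Median depth was 20556 UMIs in these members and 6002 UMIs in the cells outside the rule. A lack of calls past the 2-fold limit cannot show that the sets were alike. Over all members, the Mucl2-rich cells carried much of the RNA and moved the calls. Of 8355 genes, 140 were called higher (1.68%) and 672 lower (8.04%) in all KO members than in other KO cells. Of 8267 genes, 90 were called higher (1.09%) and 454 lower (5.49%) in all WT members than in other WT cells. Mucl2 was among the higher ones, at 222889 CPM in all WT members and 77567 CPM in other WT cells, but it was at 5824 CPM in low-secretory WT members. Between all KO and all WT members, 289 of 5998 genes were called higher (4.82%) and 71 lower (1.18%). The values below are therefore given for the low-secretory members, where Car2 and Kit were more widespread.

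Members were 15.4% of kept KO cells (14% to 16.9%) and 18.3% of kept WT cells (16.4% to 20.2%), a difference of -2.89 percentage points. The direction turned when cells of at least 2200 UMIs were compared in both libraries, an alternative added after seeing the data: members were then 24% of KO cells and 18.5% of WT cells, a difference of 5.47 points. Low-secretory members were 14.6% of kept KO cells and 15% of kept WT cells, and 22.5% of KO against 15.2% of WT cells of at least 2200 UMIs. Mucl2-rich members were 0.825% of KO cells (0.505% to 1.27%) and 3.31% of WT cells (2.5% to 4.28%). Near the limit of the rule, cells that met every other condition with 2 UMIs of Wfdc18 numbered 16 in the KO library and 24 in the WT library. Those with 3 UMIs, just inside, numbered 8 in the KO library and 10 in the WT library.

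Wfdc18 was also found outside the members. At least 1 UMI was present in 31.6% of kept KO cells and 63% of kept WT cells. In kallikrein-rich cells (at least 8% kallikrein UMIs, with no Ptprc and little Krt14, Krt17 or Smgc) it was present in 12.8% of KO cells and 35.3% of WT cells. Their median depths were 2748 UMIs in the KO library and 2672 in the WT library. The level in kallikrein-rich cells was 117 CPM in the KO library and 276 CPM in the WT library. Low Wfdc18 counts were thus also found in kallikrein-rich cells, in a larger share of them in the WT library. Other sets outside the members held more. Cells with at least 3 UMIs of Krt14 and Krt17 held 5156 CPM in the KO and 2327 CPM in the WT library. Smgc-rich cells (at least 2% Smgc) held 5596 CPM in the KO and 7562 CPM in the WT library. Ptprc-positive cells held 762 CPM in the KO and 5806 CPM in the WT library. A few cells with many UMIs weighed on these levels. The median Ptprc-positive cell held 0 Wfdc18 UMIs in the KO and 1 in the WT library, with maxima of 132 and 354. The median Krt14 and Krt17 cell held 0.5 in the KO and 1 in the WT library, with maxima of 349 and 450. Within low-secretory members Wfdc18 took a median 1.62% of UMIs in KO cells (quartiles 0.68% and 2.99%) and 2.72% in WT cells (quartiles 1.56% and 4.19%).

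The Smgc limit separated the members from cells that also held Wfdc18, Car2 and Kit. It removed 13 KO cells and 117 WT cells that met every earlier condition. Smgc encodes a secreted protein of the submandibular gland and marks immature and some adult secretory cells. The removed WT cells that met all other conditions held 15895 CPM of Wfdc18, 367 CPM of Car2, 98.1 CPM of Kit and 98284 CPM of Smgc. Low-secretory WT members held 826 CPM of Car2 and 221 CPM of Kit. Of 4102 genes, 34 were called higher (0.829%) and 31 lower (0.756%) in the members than in these cells. Among the lower ones were Pip, at 1125 CPM in the members and 30056 CPM in the removed cells, and Aqp5, at 11.1 CPM in the members and 254 CPM in the removed cells.

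Beside the genes of the rule, low-secretory members of both libraries held more Car2, Kit, Gjb2, Ano1, Esp4, Nkd2, Ccnd1 and Sox9 than the remaining cells of their library. Since the members were picked from the same cells, these values describe them and are no test, and the make-up of the remaining cells differed between libraries. Of 8281 genes, 242 were called higher (2.92%) and 567 lower (6.85%) in KO members. Of 8141 genes, 473 were called higher (5.81%) and 166 lower (2.04%) in WT members. With edgeR's TMM scaling the WT count became 158 higher and 369 lower, as the median log2 ratio of all genes moved to 0.00, against 0.36 by total UMIs. The 155 genes higher in both libraries were 64.0% of the KO list and 32.8% of the WT list.

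Car2, at chr3:14886273-14900770, was the marker that the rule did not use. It stood at 485 CPM in KO members against 80.5 CPM in other KO cells, 6.02-fold (5.32 to 6.83), and at 826 CPM in WT members against 90 CPM in other WT cells, 9.18-fold (8.23 to 10.2). Kit, a receptor tyrosine kinase, was 5.8-fold higher in KO members (98.7 against 17 CPM) and 9.75-fold higher in WT members (221 against 22.6 CPM). Gjb2, the gap junction protein connexin 26, was 10.9-fold higher in KO members and 8-fold higher in WT members. Each of the 3 genes thus stood above the remaining cells in both libraries.

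Ano1, a calcium-activated chloride channel, was 13.9-fold higher in KO members (250 against 18 CPM) and 7.38-fold higher in WT members (247 against 33.5 CPM). Esp4, of the exocrine gland-secreted peptide family, was 26.6-fold higher in KO members (128 against 4.8 CPM) and 8.88-fold higher in WT members (729 against 82.1 CPM). Nkd2, an inhibitor of Wnt signalling, was 7.16-fold higher in KO members and 8.93-fold higher in WT members. Ccnd1, which encodes the G1 cyclin D1, was 7.41-fold higher in KO members (57.8 against 7.81 CPM) and 5.58-fold higher in WT members (570 against 102 CPM). Sox9, a transcription factor of duct and progenitor cells, was 3.54-fold higher in KO members and 3.92-fold higher in WT members. The member level of Ano1 was almost the same in both libraries, whereas those of Esp4 and Ccnd1 were not.

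Gjb2 and Ano1 were rare in kallikrein-rich cells, and Car2 and Sox9 less so. Kallikrein-rich cells held a UMI of Gjb2 in 0.75% of KO and 0.599% of WT cells, against 44.8% of KO and 77.9% of WT low-secretory members. Ano1 was found in 0.25% of KO and 0.599% of WT kallikrein-rich cells, against 48.4% of KO and 55.8% of WT members. Car2 was more widespread, with a UMI in 14% of KO and 10.8% of WT kallikrein-rich cells, against 67.4% of KO and 85.1% of WT members. Sox9 was found in 45.5% of KO and 27.5% of WT kallikrein-rich cells, against 83% of KO and 91.6% of WT members. Thinned to 1000 UMIs a cell, which every member held, Car2 was found in 34% of KO members and 50.6% of WT members.

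**Figure D2:**
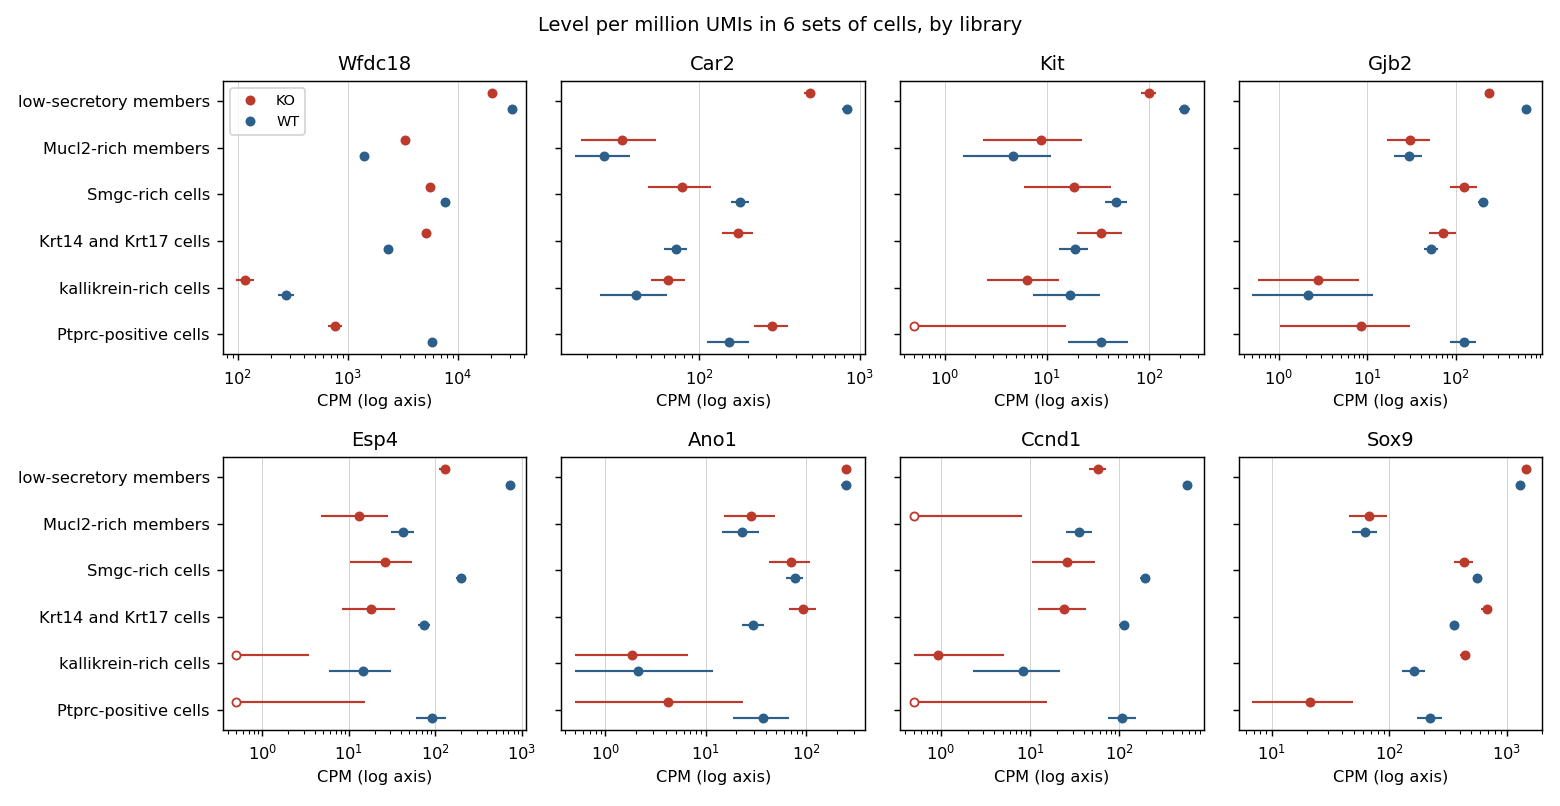
Level in CPM (horizontal, log axis) of 8 genes in 6 sets of cells, with KO above WT in each row; bars are exact 95% Poisson intervals of the summed UMIs and open circles mark sets with no UMI, drawn with values under 0.5 CPM at 0.5. Wfdc18, Gjb2, Kit and Ano1 are highest in low-secretory members of both libraries, with Smgc-rich WT cells (at least 2% Smgc) the nearest set for Gjb2 (617 CPM in WT members, 203 CPM in Smgc-rich WT cells).

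Of the intercalated duct markers outside the rule, 3 of 4 tested were called higher in KO members, and 4 of 6 in WT members (Car2, Kit, Sox9 and Gfra3), with a median log2 ratio of 1.90 in WT members beside 0.36 over all genes. Gfra3, a co-receptor of the GDNF family, was at 49.9 CPM in WT members and 6.39 CPM in other WT cells. Of 6 acinar markers tested in KO members, Prol1 and Dcpp1 were called higher and Mucl2 lower, while of 8 in WT members 5 were called lower and Dcpp1 higher. All 48 Dcpp1 UMIs of KO members and 146 of the 157 of WT members came from 1 cell of each library. The acinar markers summed to 18870 CPM in KO members and 38587 CPM in other KO cells, and to 9670 CPM in WT members and 147439 CPM in other WT cells. Mucl2 and Smgc enter these sums and were limited in the members by the 5% cut and by the rule. The lower Mucl2 and acinar sums thus follow in part from how the members were picked. The shares called over all genes were 2.92% higher and 6.85% lower in KO members, and 5.81% higher and 2.04% lower in WT members. Of the striated and excretory duct markers, 3 of 7 were called lower in KO members and 1 of 5 in WT members. Of the ionocyte markers, 4 of 5 were called lower in KO members, whereas 1 of 6, Atp6v1b1, was called higher in WT members. Of the macrophage markers, 6 of 6 were called lower in KO members and 5 of 7 in WT members, and of 6 myoepithelial markers 2 were lower in KO members and 5 in WT members. Krt5 and Krt15, keratins of basal cells, were lower in WT members and had no UMI in KO members. The rule's limits on Ptprc, Krt14 and Krt17 act against immune and basal cells, so the macrophage and basal values are a description as well.

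Transcription factors of epithelia were often higher in members. Of 18 tested, 8 were called higher in KO members, 2 lower, and 8 higher in WT members, none lower. Over all genes, 2.92% were called higher and 6.85% lower in KO members, and 5.81% higher and 2.04% lower in WT members. Counts by list were made by total UMIs only. TMM scaling took the WT calls over all genes from 473 to 158 higher. Ehf, an ETS factor, was at 652 CPM in KO members against 157 CPM in other KO cells, and at 844 CPM in WT members against 179 CPM in other WT cells. Sox9, Pitx1, Grhl1, Grhl2, Hes1 and Runx1 were higher in both libraries, Tfcp2l1 was called in WT members, and Sox10 in KO members. The 2 factors lower in KO members were Ascl3 and Foxi1, which mark ionocytes. Among 8 Notch pathway genes tested in WT members, the receptors Notch2 and Notch3 and the targets Hes1 and Hey1 were called higher.

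Ion transport genes split by cell type. In WT members 6 of 22 were called higher, beside 5.81% of all genes. They included the sodium pump subunit Atp1b1 (1963 CPM in members, 629 CPM in other WT cells), Car12, Car8 and the potassium channel Kcnma1. The secreted carbonic anhydrase Car6 and Aqp5 were lower. In KO members 6 of 23 were called higher, beside 2.92% of all genes, with Car2, Car8, Ano1, Kcnma1 and Car12 again among them. Car6 and Aqp1 were lower there. Of 8 simple keratins and luminal genes tested in WT members, Krt8, Krt18 and Krt23 were called higher. Krt7 was at 731 CPM in WT members and 410 CPM in other WT cells, under the 2-fold limit.

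Levels also varied with Wfdc18 inside the low-secretory members. KO cells with at least 2% of UMIs from Wfdc18 held 702 CPM of Car2, and those under 0.5% held 305 CPM (241 to 382). The same bands of WT cells held 907 CPM and 399 CPM (269 to 570), the lower one from 20 cells. Gjb2 was at 324 CPM in the upper and 88.4 CPM in the lower KO band, and at 688 CPM in the upper and 133 CPM in the lower WT band. Krt7 was not higher in the upper band. In KO cells it was at 298 CPM (253 to 347) in the upper and 422 CPM (345 to 511) in the lower band. KO cells from 0.5% to 2% held 459 CPM of Krt7. In WT cells Krt7 was at 711 CPM (651 to 776) in the upper and 932 CPM (726 to 1177) in the lower band, with overlapping intervals. Foxc1 was at 649 CPM in the upper and 554 CPM (466 to 655) in the lower KO band, and at 648 CPM in the upper and 306 CPM (194 to 459) in the lower WT band. Since the bands are cut on Wfdc18, whose share enters every CPM, these levels are a description.

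Of 5519 genes compared between KO and WT low-secretory members, 92 were called higher in KO members (1.67%) and 132 lower (2.39%). The genes of the rule picked the cells in both libraries, so their levels are a description. Barx2 was at 389 CPM in KO and 392 CPM in WT members, a fold of 0.993 (0.873 to 1.13). Foxc1 was at 616 CPM in KO and 589 CPM in WT members, a fold of 1.05 (0.943 to 1.16). Elf5 had a fold of 0.728 (0.592 to 0.896) and Krt8 a fold of 1 (0.955 to 1.06). Wfdc18 was at 0.659 of the WT level (0.649 to 0.67), Car2 at 0.586 (0.53 to 0.648) and Kit at 0.447 (0.361 to 0.553), all short of the call. Tmem176b had a fold of 1.95 (1.84 to 2.08).

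Of 5 epithelial defence genes, Lcn2, Slpi and Lyz2 were called higher in KO members and none lower, beside 1.67% of all genes called higher. The median log2 ratio of the 5 genes was 1.5, beside -0.02 over all genes. The Lyz2 call rested largely on 1 KO cell. Without the top cell of each library, Lyz2 was at 22.6 CPM in KO members and 17.7 CPM in WT members. Of 3 genes of the whey acidic protein family outside the rule, Wfdc12 and Slpi were called higher. Lcn2, the iron-siderophore-binding protein lipocalin 2, had 570 UMIs (402 CPM) in KO members and 21 UMIs (19.4 CPM) in WT members, 20.7-fold (13.4 to 33.8). It was found in 43.1% of KO members and 6.43% of WT members, and 1 KO cell held 89 of the UMIs, without which the KO level was 341 CPM. Wfdc12, of the same family as Wfdc18, was at 1248 CPM in KO and 116 CPM in WT members, 10.7-fold (8.95 to 13), and at 180 CPM in KO and 101 CPM in WT kallikrein-rich cells. Slpi, a secreted inhibitor of leukocyte proteases, had 94 UMIs in KO members and 6 in WT members, 12-fold (5.3 to 33.4).

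Pip was at 8769 CPM in KO members and 1125 CPM in WT members, 7.8-fold (7.35 to 8.28). Cell by cell, the median was 1967 CPM in KO and 724 CPM in WT members, and the 90th percentile was 18467 CPM in KO and 1934 CPM in WT members. Both libraries overlapped over most of the range of Pip, and the highest single cell held 232887 CPM in the KO and 38001 CPM in the WT library. Prol1 was at 3885 CPM in KO and 1063 CPM in WT members, 3.66-fold (3.43 to 3.9), with cell medians of 710 CPM in KO and 461 CPM in WT members. Kallikrein-rich cells held 611 CPM of Pip in the KO and 1016 CPM in the WT library, beside 8769 CPM in KO and 1125 CPM in WT members. For Prol1 they held 136 CPM in the KO and 486 CPM in the WT library, below the members of each. KO members with 1% to 2% of UMIs from Mucl2 and the secretoglobins held 15505 CPM of Prol1, and those under 1% held 1656 CPM.

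**Figure D3:**
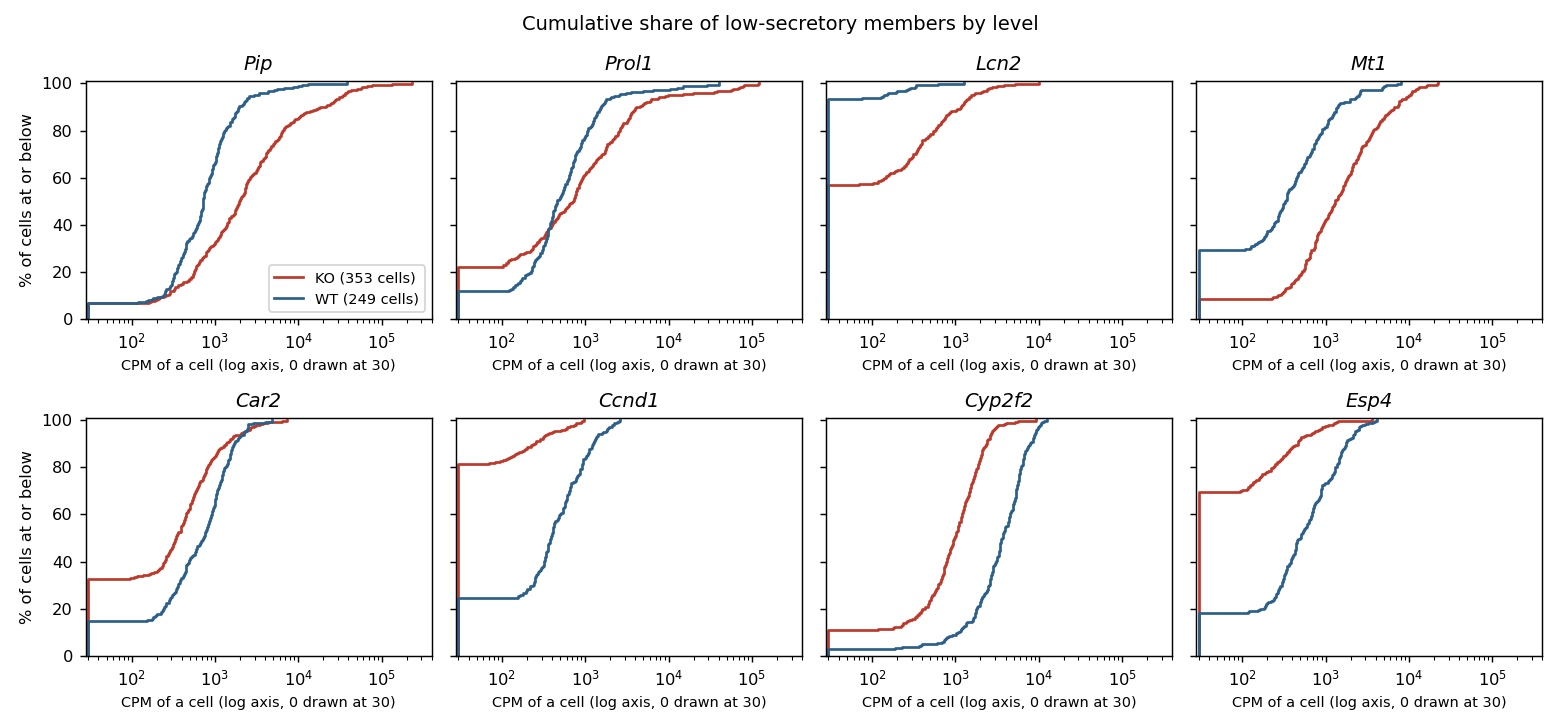
Cumulative share of low-secretory members (vertical, % of cells) at or below a level in CPM (horizontal, log axis, 0 drawn at 30) for 8 genes, with 353 KO and 249 WT cells. The KO line lies to the right of the WT line over the upper part of Pip, Prol1, Lcn2 and Mt1, and to its left for Car2, Ccnd1, Cyp2f2 and Esp4; the Lcn2 line starts at 56.9% of KO cells and 93.6% of WT cells with no UMI.

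Of 13 glucocorticoid and nutrient stress genes, 9 were called higher in KO members and none lower, with a median log2 ratio of 1.48 beside -0.02 over all genes. The shares called over all genes were 1.67% higher and 2.39% lower. The metallothionein Mt1 was at 2466 CPM in KO and 610 CPM in WT members, 4.04-fold (3.72 to 4.4), and Mt2 was 3.76-fold higher. The glucocorticoid-induced genes Tsc22d3 and Fkbp5 were 2.95-fold and 6.29-fold higher, and Ddit4, an inhibitor of mTORC1 signalling, 3.69-fold. The remaining calls were Trp53inp1, Pdk4, Bnip3 and Zbtb16, while Sgk1 had a fold of 1.02 (0.813 to 1.28). None of 19 stress and immediate early genes was called, with a median of 0.12. Mt1 was also found in 99.8% of kallikrein-rich KO cells and 92.2% of kallikrein-rich WT cells, against 91.5% of KO and 70.7% of WT members.

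Other calls fell outside these lists. Fgg, the fibrinogen gamma chain, was 11.5-fold higher in KO members, the non-coding RNA host gene Snhg9 9.43-fold, the adaptor Nck2 7.51-fold, the transcription factor Klf15 5.6-fold, Fbxo31 5.44-fold and Sec14l1 4.62-fold. Cirbp, a cold-inducible RNA-binding protein, was at 593 CPM in KO and 134 CPM in WT members. The claudin Cldn10 was 6.39-fold higher and Cldn4, a tight junction protein of ducts, 2.25-fold higher (2.01 to 2.52). Elf3, an epithelial ETS factor, was 2.94-fold higher and the only called one of 15 transcription factors outside the rule. Of 5 striated and excretory duct markers, Csn3, Cldn4 and Scnn1a were called higher, beside 1.67% of all genes. However, 132 of 158 Csn3 UMIs of KO members came from 1 cell. Likewise 83 of 115 Lyz2 UMIs of KO members, a macrophage and defence marker, came from 1 cell.

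Among the lower calls were genes that stood higher in WT members than in the remaining WT cells. The WT cells that failed only the Smgc limit held Ccnd1, Esp4 and Gjb2 about as widely as WT members. Ccnd1 was found in 75.9% of those cells, Esp4 in 79.3% and Gjb2 in 76.7% (77.9% of WT members for Gjb2). Those cells were deeper, with a median of 5199 UMIs against 3832 in WT members. Their levels were below those of WT members, at 394 CPM of Ccnd1, 405 CPM of Esp4 and 411 CPM of Gjb2. Ccnd1 had 82 UMIs (57.8 CPM) in KO and 617 UMIs (570 CPM) in WT members, 9.85-fold lower (7.81 to 12.6), and was found in 18.4% of KO and 75.5% of WT members. Thinned to 1000 UMIs it was found in 5.38% of KO and 35.7% of WT members, and kallikrein-rich cells held it in 0.25% of KO and 1.8% of WT cells. Esp4 was 5.71-fold lower (4.85 to 6.75) and was found in 30.6% of KO and 81.9% of WT members. Gjb2 was at 237 CPM in KO and 617 CPM in WT members, 2.6-fold lower (2.28 to 2.98). In KO members each of these genes was still higher than in other KO cells.

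Nkd2 was 5.52-fold lower, the sodium-dicarboxylate transporter Slc13a2 5.71-fold, the adhesion receptor Adgrg6 10.6-fold and the potassium channel subunit Lrrc26 7.19-fold. Cyp2f2, a cytochrome P450, was at 1196 CPM in KO and 4192 CPM in WT members, 3.5-fold lower. It was widespread, with a UMI in 82.8% of KO and 94.6% of WT kallikrein-rich cells, against 89% of KO and 97.2% of WT members. Gfra3 had 3 UMIs in KO members and 54 in WT members, 23.6-fold lower (7.65 to 118), with none in kallikrein-rich cells of either library. Ptn, a heparin-binding growth factor, had no UMI in KO members and 88 in WT members, at least 38.4-fold lower against a floor of 3 counts over the set. It was found in 12.9% of WT members and 2.4% of kallikrein-rich WT cells. All other kept cells held 5 UMIs of Ptn in the KO and 1947 in the WT library. Cells with at least 3 UMIs of Krt14 and Krt17 held 2 in the KO and 1559 in the WT library. The WT level was 81.3 CPM in members, 336 CPM in all other kept cells and 728 CPM in Krt14 and Krt17 cells.

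The MHC class II genes and Cd74, the invariant chain, were also lower in KO members. Of 10 antigen presentation genes, Psmb8, H2-Ab1, H2-Aa, H2-Eb1 and Cd74 were called lower, beside 2.39% of all genes. Cd74 had 17 UMIs (12 CPM) in KO and 338 UMIs (312 CPM) in WT members, while kallikrein-rich cells had 11.1 CPM in the KO and 446 CPM in the WT library. All other kept WT cells together had 1003 CPM. In WT members 120 of the 338 UMIs came from 1 cell. The macrophage markers summed to 98 CPM in KO and 124 CPM in WT members with Adgre1 at 0 in KO and Cx3cr1 at 0 in WT members, and 7 of 8 had a UMI in each. Their part in the result was not tested.

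None of 13 TGF-beta, activin and Fst genes, 5 Notch genes, 7 Wnt genes, 12 growth factor receptors or 15 genes of endoplasmic reticulum folding was called in either direction between KO and WT members. Their medians were -0.04, -0.49, -0.30, -0.14 and -0.34 in that order, beside -0.02 over all genes. With 1.67% of all genes called higher and 2.39% lower, so few calls in lists of this size are near the background. An uncalled gene can still have a fold above 2, as with the receptor Igf1r at 2.56 (1.98 to 3.36) and the signal transducer Smad4 at 2.68 (1.9 to 3.86). Of 5 cell cycle genes with enough UMIs, Stmn1 and Ccnd1 were lower and none higher. Of 17 ion and water transport genes, Scnn1a was higher and Lrrc26 lower.

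Some of these ratios recurred in other cells of the libraries and some did not. In log2 of KO over WT, Lcn2 was at 3.81 in low-secretory members, 3.65 in cells with at least 3 UMIs of Krt14 and Krt17 and 5.14 in kallikrein-rich cells. Cirbp was at 2.07, 1.64 and 2.05 in the same sets, and Mt1 at 2.0, 1.10 and 2.25. Ccnd1 was at -3.10 in low-secretory members and -1.84 in Krt14 and Krt17 cells, and Ptn at -3.19 and -5.72 in the same sets. Pip was at 2.95 in low-secretory members, -0.59 in Krt14 and Krt17 cells and -0.72 in kallikrein-rich cells. Prol1 was at 1.86, -0.11 and -1.76 in those sets, and Car2 at -0.76, 1.17 and 0.56. The Krt14 and Krt17 cells differed in make-up between the libraries. Of 128 such KO cells 32 failed only the keratin limit of the rule, and of 466 such WT cells 58 did. Their Wfdc18 level was 5156 CPM in the KO and 2327 CPM in the WT library. The part of this make-up in the ratios was not tested. Pip was also higher in KO in Smgc-rich cells, at 163079 CPM in the KO and 55087 CPM in the WT library. Mucl2-rich members held 114765 CPM of Pip in the KO and 55081 CPM in the WT library. For Prol1, Smgc-rich cells held 655 CPM in the KO and 2473 CPM in the WT library. Mucl2-rich members held 57657 CPM of Prol1 in the KO and 48899 CPM in the WT library. The differences between sets were not tested.

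**Figure D4:**
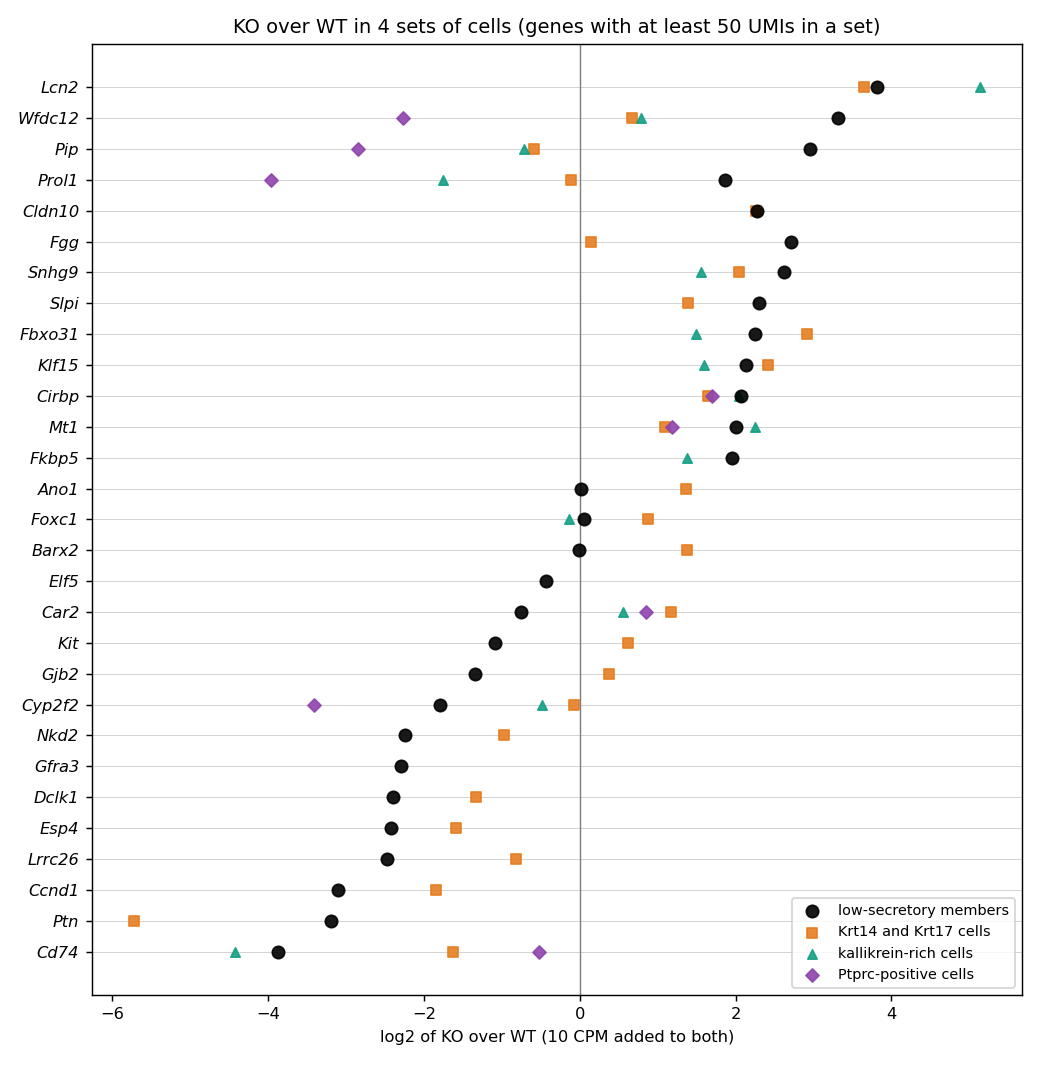
Log2 of KO over WT (horizontal, 10 CPM added to both) for 29 genes in low-secretory members (circles), Krt14 and Krt17 cells (squares), kallikrein-rich cells (triangles) and Ptprc-positive cells (diamonds), each shown where the set held at least 50 UMIs. Lcn2, Cirbp and Mt1 lie above 0 in members, in Krt14 and Krt17 cells and in kallikrein-rich cells. Pip and Prol1 lie above 0 in members and below it in the other sets drawn. Smgc-rich cells and Mucl2-rich members are not drawn.

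Transcripts of other cells were present in the low-secretory members of both libraries. At least 3 UMIs of 4 haemoglobin genes were found in 28% of KO and 85.1% of WT members, with sums of 7263 CPM in KO and 12110 CPM in WT members. The 9 basal duct markers summed to 320 CPM in KO and 420 CPM in WT members. The 7 myoepithelial markers summed to 162 CPM in KO and 64.6 CPM in WT members, and 37 of the 137 KO UMIs of Acta2 came from 1 cell. The 7 fibroblast markers summed to 41.6 CPM in KO members, all from Dcn, and 170 CPM in WT members. Their part in the differences between KO and WT members was not tested.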

How the data were processed

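The deposited tables hold whole-number UMI counts per Ensembl gene and barcode of 1 KO and 1 WT library; the authors' count step used Cell Ranger 2.1.0 on mm10, with bcl2fastq 2.19.1 and Seurat 3.1.2 also named, per the submitters' processing notes. How the barcodes were selected before deposit is not stated there. Of 27998 genes, 27645 matched a symbol and 353 kept their ID. The deposited barcodes numbered 4726 (KO) and 1970 (WT). Members, gene lists and named genes were chosen with earlier results of these data known. UMIs were summed per set and compared by the ratio of CPM with an exact conditional interval (scipy 1.17.1, Python 3.11.15), since 1 library a genotype allows no test. Named genes were the genes of the rule with Car2, Kit, Smgc, Trp63 and Fst, those with the highest or lowest log2 ratios among called genes, and the called or most abundant members of 29 lists. Sex-linked, mitochondrial, ribosomal, haemoglobin and immunoglobulin genes and unnamed models stayed outside the second part. Levels are not adjusted for length and are compared within a gene. Scrublet (scanpy 1.11.5) marked 7 of 2423 KO cells (0.289%) and 0 of 1663 WT cells, too few to have removed doublets, and no member. TMM factors came from edgeR 4.0.16. Gene positions are from GENCODE and promoters from RefSeq tables. Other cell filters, Wfdc18 limits, count minimums, scalings and thinning were tried.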

Additional observations from a re-analysis of the deposited data

Results flagged for a closer look

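Prol1 moved in opposite directions in the 2 libraries when low-secretory members were set against the remaining cells of their own library. The log2 ratio was 1.27 in the KO library (3885 CPM in members, 1603 CPM in other cells) and -2.83 in the WT library (1063 CPM in members, 7631 CPM in other cells). It was the only gene called lower in WT and higher in KO members, and the difference itself was not tested. The other cells differed as well, since cells with at least 20% of UMIs from Mucl2 and the secretoglobins outside the rule numbered 14 in the KO and 108 in the WT library.

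Barcodes that the cell filter left out also held cells that met the member rule. There were 31 of 2303 in the KO library (1.35%, 0.916% to 1.91%) and 6 of 307 in the WT library (1.95%, 0.721% to 4.21%). Their median mitochondrial share was 25.7% in the KO and 26.6% in the WT library. They held 9976 CPM of Wfdc18 and 407 CPM of Car2 in the KO library, and 12142 CPM of Wfdc18 and 300 CPM of Car2 in the WT library.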

How the results depend on the processing

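With 1 library a genotype, the spread between animals is unknown, depth differs between the libraries and genes under 50 UMIs cannot be called. No paired analysis was possible because each genotype had 1 library. The share of members, KO minus WT, was -7.19 points with no cell filter (8.55% of KO and 15.7% of WT cells) and -0.404 without Mucl2-rich members (WT 15%). It reversed to 5.47 points (KO 24%) in cells of at least 2200 UMIs, and to 7.32 points (22.5% of KO and 15.2% of WT cells) when Mucl2-rich members were left out as well. The settings by 2200 UMIs and by Mucl2-rich members were chosen after seeing the data. The KO share was 19% with a stricter cell filter (500 genes, 10% mitochondrial), and 18.3% with the rule applied to thinned counts.

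Over all members, WT members had 90 genes higher and 454 lower than other WT cells, and KO members 289 higher and 71 lower than WT members. With at least 5 Wfdc18 UMIs, 143 were higher in WT members and 176 higher in KO over WT. With TMM scaling the counts were 141 higher in WT members, 125 higher and 129 lower in KO over WT, and 158 higher and 369 lower in low-secretory WT members. At 20 UMIs a gene, 109 were lower in KO over WT. At 200 UMIs they were 50 higher and 234 lower in WT members, 143 higher and 34 lower in KO over WT, 257 higher and 106 lower in low-secretory WT members, and 45 higher and 63 lower in low-secretory KO over WT members. Thinned to 1000 UMIs, 98 were lower in WT members, 42 higher and 22 lower in KO over WT, 147 higher and 78 lower in low-secretory WT members, and 34 higher and 23 lower in low-secretory KO over WT members. Fewer UMIs or fewer tested genes are part of the last 2 settings, and the cause of the other changes was not tested.

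Without Mucl2-rich members, 473 were higher and 166 lower in WT members, and 92 higher and 132 lower in KO over WT members. With at least 2200 UMIs as well, they were 470 and 163 in WT members, and 88 and 127 in KO over WT members. The log2 ratios of 9 secretory-cell genes in WT members over other cells reversed in these 2 settings, to -4.45 and -4.45 (Car6), -2.83 and -2.84 (Prol1), -4.26 and -4.27 (Scgb2b26), -4.10 and -4.11 (Scgb2b27), -3.73 and -3.74 (Mucl2), -4.16 and -4.17 (Scgb1b27), -0.74 and -0.74 (Kcnn4), -1.99 and -2.00 (Oit1), and -3.54 and -3.55 (Mup5). Oit1 in KO over WT members reversed to 0.19 and 0.24. Of the 85 genes followed among low-secretory members, none was labelled reversed under the 13 settings run on them. Some of these settings could not move the ratios: other minimums of UMIs per gene, and leaving out Scrublet doublets, as no member was one. All 85 genes stayed the same there. The count also says nothing about genes without a call, such as Car2, Kit and Barx2 in KO over WT members.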
